A study of Danio rerio with 8 samples.

Results

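The miR-130, miR-301 and miR-454 seed family was measured by 8 of the 248 zebrafish miRNA probes on the chip. They were dre-miR-130a, dre-miR-130b, dre-miR-130c, dre-miR-301a, dre-miR-301b, dre-miR-301c, dre-miR-454a and dre-miR-454b. Members were taken by probe name alone, without star forms, and the listed sequences bore the grouping out. All 8 held the same seed, and no other zebrafish miRNA probe on the chip held it.

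Total RNA came from whole zebrafish embryos at 72 hpf (hours post-fertilisation). MC-RR-treated embryos (4 arrays) had been injected into the yolk at an early cleavage stage with microcystin-RR, a cyanobacterial toxin, at a dose below the median lethal dose. Control embryos (4 arrays) served for comparison. The paper names an injection of saline solution for the controls of its vessel experiment, and does not state it for the arrays. Each array held 1 sample stained with Cy5, and the labels call the 4 arrays of a group biological replicates. The fish facility kept AB wild-type and Tg-(flk:GFP) fish, and which strain gave the arrayed embryos is not given in the sources used here. The question was whether MC-RR altered the expression of these miRNAs.

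A miRNA guides the silencing complex to messenger RNAs mainly through its seed, so miRNAs with a common seed can share many targets. In human and mouse, members of this family have been studied as regulators of TGF-beta signaling and of the nuclear receptor PPAR gamma, and human miR-130a as a factor in blood vessel growth. In human, miR-301a and miR-454 lie beside each other in an intron of the SKA2 gene. These roles are background from mammals, and no target was measured on the arrays.

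The sequences of all 8 members are shown because the results turn on how alike the probes are. The capitals mark the seed, bases 2 to 8 from the 5′ end, and each sequence is the one the scanner files list for the probe.
dre-miR-130a: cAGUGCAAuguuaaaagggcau
dre-miR-130b: cAGUGCAAuaaugaaagggcau
dre-miR-130c: cAGUGCAAuauuaaaagggcau
dre-miR-301a: cAGUGCAAuaguauugucaaag
dre-miR-301b: cAGUGCAAuaguauugucauug
dre-miR-301c: cAGUGCAAuaguauugucauag
dre-miR-454a: uAGUGCAAuauugcuaauaggg
dre-miR-454b: uAGUGCAAuauugcuuauaggg

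All 8 sequences were 22 nt long, and their common run reached from base 2 to base 9. Outside this run the 3 name groups differed mostly in their 3′ part, with 9 to 12 differing bases in all between members of different groups. At base 1 the miR-454 members held U and the others C. Within a group the differences were few. Counting from the 5′ end, dre-miR-130a differed from dre-miR-130c by G10A alone, and dre-miR-130b differed from dre-miR-130c by A11U and G13A. dre-miR-301a differed from dre-miR-301c by A20U, and dre-miR-301b from dre-miR-301c by U21A. dre-miR-454a differed from dre-miR-454b by A16U. Probes that differ by 1 base can share signal, and how far they did so here was not tested. The members of a name group are therefore not taken as independent measurements. dre-miR-130c, the 3 miR-301 members and both miR-454 members each held 8 C or G bases, while dre-miR-130a and dre-miR-130b held 9.

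The genes of all 8 members were found in the RefSeq gene table of the GRCz12tu assembly, where they made 9 genes because dre-miR-130c has a pair of them. With a window of 10 kb, the genes lay beside each other. The genes of dre-miR-130a, dre-miR-301a and dre-miR-454a formed a cluster. The gene of dre-miR-454b lay within 10 kb of those of dre-miR-130b and dre-miR-301b and of 1 gene of dre-miR-130c. The other gene of dre-miR-130c lay beside that of dre-miR-301c. No miRNA gene from outside the family lay within 10 kb of any member. The assembly used for the chip is not named, so no positions are given.

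MC-RR replicate 2 stood apart from the other arrays. Its median intensity over the zebrafish probes was 106, against 199 to 384 on the other 7 arrays, and 10 of the 248 zebrafish miRNAs lay there more than 2 log2 units under their lowest value elsewhere. No miRNA did so on any other array. On control replicate 4 the 95th percentile of the 206 blank spots was 512, against 49.7 to 188 on the others, and 2 of the 8 members exceeded it there. Of the 10 marker miRNAs of muscle, nervous system, blood, endothelium and epidermis, 9 exceeded that percentile on at least 7 arrays, and the erythroid dre-miR-144 on 0. Results that rest on MC-RR replicate 2 are given with and without it. Signals are given as normalized log2 values after background correction, and a log2 difference is the MC-RR mean minus the control mean. Signal over the blank percentile on 4 or more of the 8 arrays was required for a test, and 187 of the 248 miRNAs, with 7 of the 8 members, met this. Each p sets a difference between the groups against the spread between these arrays. In whole embryos, fewer cells of a type and less miRNA per cell cannot be told apart.

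None of the 7 tested members was changed by MC-RR at an unadjusted p under 0.05 in limma, against 8.56% of all tested miRNAs. After Benjamini-Hochberg adjustment the number was also 0, as it was for all tested miRNAs (0.00%). The methods' t-test on the same values gave 0 members at the unadjusted threshold too, unpaired as well as paired by replicate number. For that test the share of all tested miRNAs under the threshold is not given, so its count has no background to be set against. When limma took the replicate number as a block, 0 of 7 were lower and 0 of 7 higher at the unadjusted threshold, against 10.2% and 5.88% of all tested. Without the block and with all arrays, the smallest unadjusted limma p among the members was 0.479, for dre-miR-454b. The MC-RR and control arrays overlapped for all 7, and the groups did not overlap for only 3.21% of all tested miRNAs. With 7 members, counts of 0 against shares of 8.56% or 3.21% do not set the family apart from the other miRNAs. In no member did all 4 replicate numbers move alike, as they did in 33.7% of the tested miRNAs. This count rested partly on MC-RR replicate 2. For dre-miR-130b and dre-miR-454a, number 2 alone went down, and the other numbers all went up. No further tested member moved alike over the other numbers. The share of all tested miRNAs without number 2 is not given. The log2 difference was below 0 for 6 of 7 members, against 53.5% of all tested, and its median was -0.09 over the members and -0.06 over all tested. The count below 0 rested on the scaling between arrays. It was 3 of 7 with quantile normalization (44.9% of all tested), 2 of 7 with median scaling (37.4%) and 6 of 7 with 75th percentile scaling (70.1%). The count below the median of all tested miRNAs varied less. It was 5 of 7 with cyclic loess, 4 with quantile normalization, 5 with median scaling and 5 with 75th percentile scaling.

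**Figure D1:**
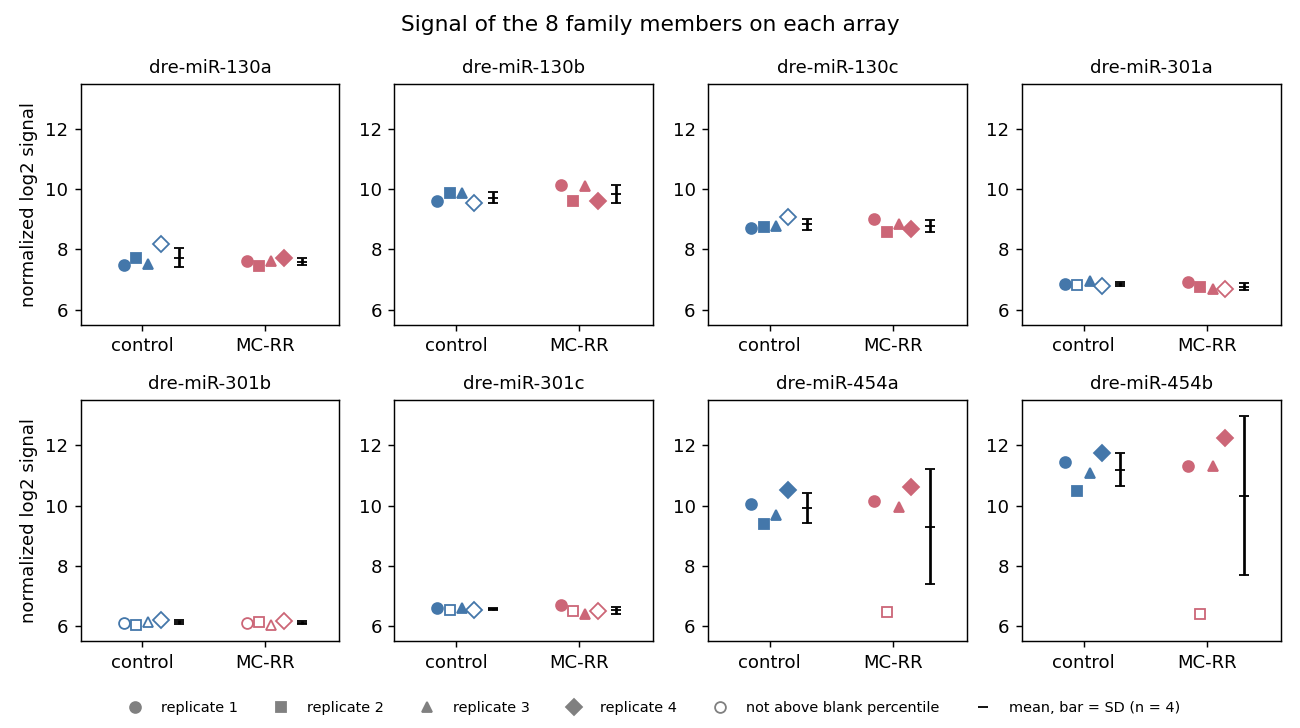
Normalized log2 signal (vertical axis) of each member on the 4 control and the 4 MC-RR arrays, with the marker shape giving the replicate number, open markers for signals not above the blank percentile, and the mean ± SD (n = 4) as a bar. The groups overlap for every member, and only dre-miR-454a and dre-miR-454b have an array far from the rest, MC-RR replicate 2 at 6.47 and 6.42.

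The miR-130 members were measured above the blank percentile on 7 of the 8 arrays each. The exception for each was control replicate 4, where the blank spots were bright. For dre-miR-130b, the log2 signal was 9.60, 9.88, 9.87 and 9.53 for control replicates 1 to 4. For MC-RR replicates 1 to 4 it was 10.12, 9.59, 10.10 and 9.60. The highest values were on MC-RR replicates 1 and 3, and the other MC-RR arrays lay within the control range. MC-RR arrays averaged 9.85 ± 0.30 (SD, n = 4) and control arrays 9.72 ± 0.18 (SD, n = 4). The log2 difference of dre-miR-130b was 0.13 (SE 0.19), with a 95% interval from -0.30 to 0.56. Its adjusted p in limma was 0.892 and its two-sided exact permutation p 0.486.

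dre-miR-130a, which differs from dre-miR-130c by a single base, gave 7.47, 7.73, 7.51 and 8.17 on control replicates 1 to 4. On MC-RR replicates 1 to 4 it gave 7.62, 7.44, 7.62 and 7.70. Control replicate 4 was the highest array, and the MC-RR arrays lay inside or just under the range of the others. Its log2 difference was -0.12 (SE 0.18), with a 95% interval from -0.54 to 0.30 and an adjusted p of 0.892 in limma. dre-miR-130c gave 8.72, 8.73, 8.78 and 9.08 on the control arrays and 9.01, 8.56, 8.83 and 8.67 on the MC-RR arrays, in the same order. Here too control replicate 4 was the highest. The log2 difference of dre-miR-130c was -0.06 (SE 0.16), with a 95% interval from -0.43 to 0.30 and an adjusted p of 0.895 in limma. Without control replicate 4 the log2 difference was 0.02 for dre-miR-130a and 0.01 for dre-miR-130c. Over the 8 members, the coefficient of variation between spots had a median of 8.35%. The highest, 18.2%, was that of dre-miR-130c on control replicate 4, and outside that array it reached at most 15.8%.

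The miR-301 members were near the background. dre-miR-301a exceeded the blank percentile on 5 of the 8 arrays, with log2 signals from 6.78 to 6.94 in controls and from 6.67 to 6.93 with MC-RR. Its log2 difference was -0.09 (SE 0.13), with a 95% interval from -0.38 to 0.20. dre-miR-301c did so on 4 arrays, with signals from 6.53 to 6.61 in controls and from 6.42 to 6.69 with MC-RR, and its log2 difference was -0.04 (SE 0.12). Their adjusted p in limma were 0.892 and 0.916. At this brightness the background correction compresses a change, and a p above the threshold does not show that the level was the same.

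dre-miR-301b exceeded the blank percentile on 0 of 8 arrays and was not tested. Its mean intensity was 0.257 to 1.05 times the median of the blank spots. No fold is given for dre-miR-301b.

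The miR-454 members carried the widest spread. On control replicates 1 to 4, the log2 signal of dre-miR-454a was 10.06, 9.39, 9.70 and 10.52. On MC-RR replicates 1 to 4 it was 10.14, 6.47, 9.97 and 10.62. MC-RR replicates 1, 3 and 4 lay in or just above the control range, and MC-RR replicate 2 lay 2.92 log2 units under the lowest other array.

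The log2 signal of dre-miR-454b was 11.46, 10.48, 11.07 and 11.75 on the control arrays. It was 11.32, 6.42, 11.31 and 12.26 on the MC-RR arrays. Again 3 MC-RR arrays were in or above the control range, and MC-RR replicate 2 lay 4.06 log2 units under the lowest other array. In each group, replicate 4 was the highest array and replicate 2 the lowest for both miR-454 members.

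The low values were those of a signal at background. The mean intensity on MC-RR replicate 2 was 40.9 for dre-miR-454a and 41.9 for dre-miR-454b, and the blank spots there had a median of 48.3. On the other 7 arrays the lowest means were 913 and 1782. Each probe had 10 spots in 4 rows and 3 columns of the chip, and all 20 spots lay under the blank percentile of that array, 19 of them under the blank median. The spots of dre-miR-454a ran from 37.3 to 46.7 and those of dre-miR-454b from 36.4 to 48.7. The loss was thus present at every spot. As the signal was at the blank level, the differences of 2.92 and 4.06 are lower limits. The normalized table deposited by the authors held the same pattern, with 6.15 for dre-miR-454a on MC-RR replicate 2 against 663 to 1411 on the other arrays. For dre-miR-454b it held 9.65 against 1517 to 4584.

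**Figure D2:**
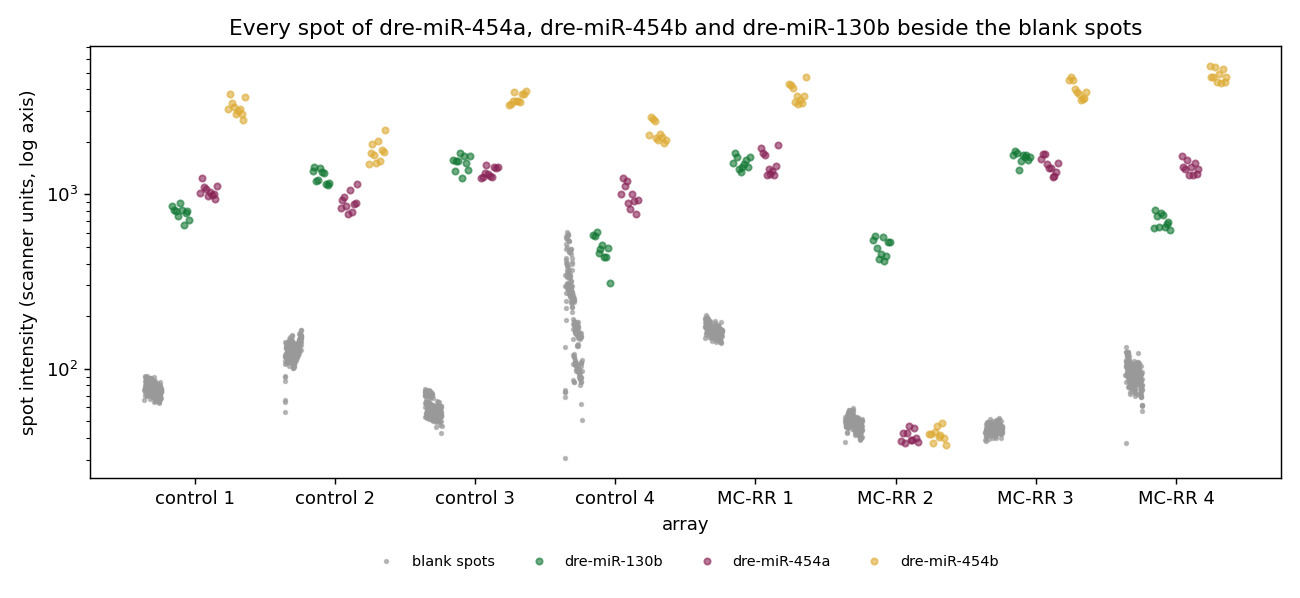
Intensity of every spot (log axis, scanner units before correction) of dre-miR-130b, dre-miR-454a and dre-miR-454b beside the 206 blank spots of each array, with the points of a probe set side by side in file order. On MC-RR replicate 2 the miR-454 spots lie among the blank spots, with means of 40.9 and 41.9, while the dre-miR-130b spots have a mean of 498.

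The 3 miR-130 members and dre-miR-301a stayed above the blank percentile on the same array, while dre-miR-301b and dre-miR-301c did not exceed it there. The mean intensity of dre-miR-130b on MC-RR replicate 2 was 498, or 10.3 times the blank median. On MC-RR replicates 1, 3 and 4 it was 9.16, 36.1 and 7.67 times the blank median of the array. Relative to the mean of the other 3 MC-RR arrays, the normalized log2 signal on MC-RR replicate 2 differed by -0.35 for dre-miR-130b, -0.28 for dre-miR-130c and -0.21 for dre-miR-130a. The differences of the miR-301 members, all near background, were between -0.03 and 0.04. For dre-miR-454a the difference was -3.78 and for dre-miR-454b -5.21, and as both were at the blank level on that array, these sizes are lower limits too and have no rank. Members whose genes lie in a cluster thus differed on this array, dre-miR-454a from dre-miR-130a and dre-miR-454b from dre-miR-130b and dre-miR-130c. These are values from 1 array, and no test was made on them.

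Of the 10 miRNAs that lost more than 2 log2 units on MC-RR replicate 2, 2 were members of the family, 2 of 8 against 4.03% of all zebrafish probes. These 2 probes are a single base apart and can share signal. Probes near background on the other arrays, such as those of the miR-301 members, could not fall that far. The limit of 2 log2 units was chosen after the values were seen. The other 8 were dre-miR-203a, dre-miR-1, dre-miR-181b, dre-miR-205, dre-miR-153c, dre-miR-135c, dre-miR-19c and dre-miR-19d. Of the 10, 5 were not above the blank percentile there, both miR-454 members among them. dre-miR-1, a muscle miRNA, lay 4.28 log2 units under its lowest other array, and the epidermal dre-miR-203a and dre-miR-205 lay 5.05 and 3.06 under theirs. The other muscle markers, dre-miR-133a and dre-miR-206, lay only 0.59 and 0.20 under theirs. dre-miR-203b was at 13.05 there, against a median of 12.88 on the other 7 arrays. The part of muscle or skin in the loss of miR-454 signal was not tested. The C and G content of the 10 had a median of 38.6%, against 43.5% over all zebrafish probes, and ran from 27.3% to 54.5%. The probes carry chemical modifications that balance their melting temperatures, and the part of base content in the loss was not tested.

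**Figure D3:**
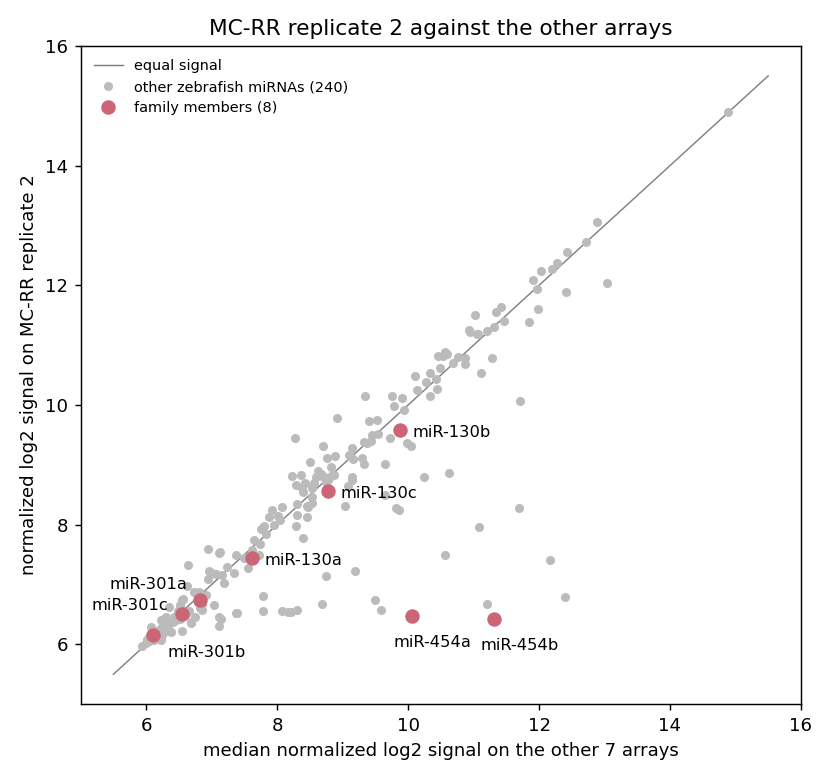
Normalized log2 signal of each of the 248 zebrafish miRNAs on MC-RR replicate 2 (vertical axis) against its median on the other 7 arrays (horizontal axis), with the line of equal signal and the 8 members marked. The miR-130 and miR-301 members lie close to the line, and dre-miR-454a and dre-miR-454b lie far under it, at 6.47 and 6.42.

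The comparison of MC-RR with control for miR-454 depended on this array. With all 8 arrays, dre-miR-454a averaged 9.92 ± 0.49 (SD, n = 4) in control embryos, and 9.30 ± 1.91 (SD, n = 4) was its average after MC-RR. Its log2 difference was -0.62 (SE 0.85), with a 95% interval from -2.57 to 1.34. The adjusted p in limma was 0.892, and the two-sided exact permutation test over arrays gave p = 0.857. Without MC-RR replicate 2 the direction turned, to a log2 difference of 0.30 (SE 0.29) with a 95% interval from -0.37 to 0.96 and an adjusted p of 0.983 in limma. dre-miR-454b averaged 11.19 ± 0.55 (SD, n = 4) in control embryos, and 10.33 ± 2.64 (SD, n = 4) was its average after MC-RR. Its log2 difference was -0.86 (SE 1.16), with a 95% interval from -3.53 to 1.81 and an adjusted p of 0.892 in limma. Without MC-RR replicate 2 it was 0.39 (SE 0.32), with a 95% interval from -0.36 to 1.14 and an adjusted p of 0.983. Neither a fall nor a rise of miR-454 was therefore measured beyond the spread between arrays. Without that array, 4 of the 7 tested members had a log2 difference below 0, against 50.8% of all tested, and 0 of 7 had an unadjusted p under 0.05 in limma, against 8.02%.

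**Figure D4:**
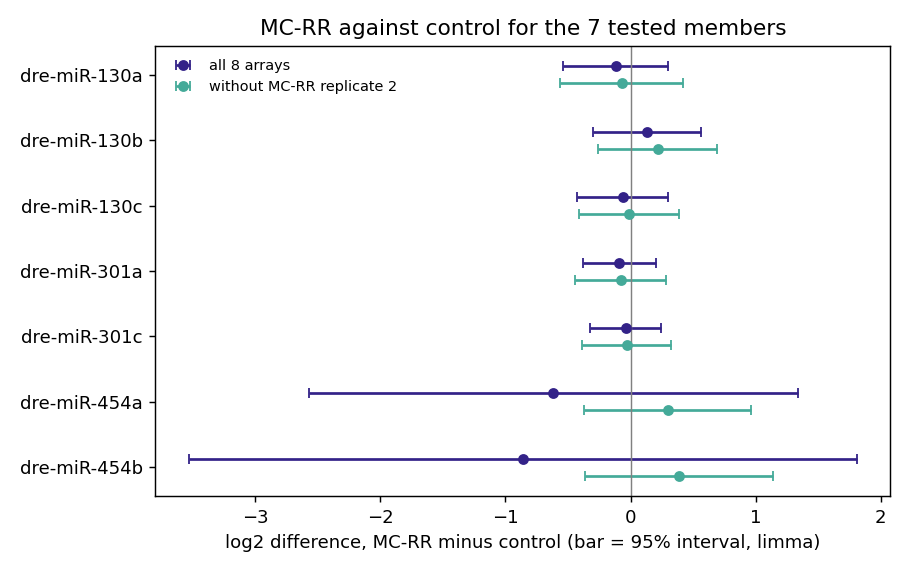
Log2 difference, MC-RR minus control (horizontal axis), for the 7 tested members, as points with 95% intervals from limma, over all 8 arrays and without MC-RR replicate 2. Every interval holds 0, and for dre-miR-454b the interval runs from -3.53 to 1.81 with all arrays and from -0.36 to 1.14 without MC-RR replicate 2.

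In the fit blocked by replicate number, the standard error was 0.61 for dre-miR-454a and 0.84 for dre-miR-454b, and the limma p were 0.357 and 0.354. The difference between MC-RR and control within a replicate number was 0.08, -2.92, 0.27 and 0.11 for dre-miR-454a and -0.14, -4.06, 0.24 and 0.51 for dre-miR-454b, for numbers 1 to 4. Outside number 2, each of these was smaller than the spread of the control arrays from their lowest to their highest. For dre-miR-130b the differences were 0.52, -0.29, 0.23 and 0.07.

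Whether members responded differently from each other was compared within arrays, over the 21 pairs of tested members. The smallest p was 0.171 (two-sided exact permutation test over arrays), for dre-miR-301a and dre-miR-301c. Adjusted over the 21 pairs, the smallest p was 0.960. With 4 against 4 arrays this test allows no p below 0.0286. A single differing pair could therefore not reach an adjusted p under 0.05, so the adjusted values cannot decide on single pairs. For dre-miR-130b and dre-miR-454b, which have neighbouring genes, the log2 differences of 0.13 and -0.86 gave an exact permutation p of 0.657. No difference between members was thus seen beyond the spread between arrays. With quantile, median or 75th percentile scaling and without normalization, 0 pairs had an exact permutation p under 0.05. Pairs were not compared under other background corrections, with the replicate block or on the deposited table. With each profile centred on its own mean, dre-miR-454a and dre-miR-454b differed by a root mean square of 0.48 over the 8 arrays and 0.16 without MC-RR replicate 2. dre-miR-130a and dre-miR-130c differed by 0.16 over the 8 arrays. Without MC-RR replicate 2, the miR-454 members differed from the miR-130 members by 0.36 to 0.66. These distances are descriptions over arrays, and members 1 base apart may share signal.

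The zebrafish miRNAs with a shifted form of the seed were taken as a comparison list, dre-miR-19a to dre-miR-19d, dre-miR-148 and dre-miR-152. In the following sequences, the capitals mark the 6 bases that lie in the seed of each and also in the seed of the family.
dre-miR-19a: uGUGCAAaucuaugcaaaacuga
dre-miR-19c: uGUGCAAauccaugcaaaacucg
dre-miR-148: ucAGUGCAuuacagaacuuugu
dre-miR-152: ucAGUGCAugacagaacuuugg

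All 6 of the list were tested, and 0 had an unadjusted p under 0.05 in limma, with or without the replicate block. Their median log2 difference was -0.28, and 0.02 without MC-RR replicate 2. The miR-19 members come from clusters of the miR-17 type, known in human and mouse for driving cell growth. On MC-RR replicate 2, the log2 signal relative to the mean of the other MC-RR arrays differed by -3.15 for dre-miR-19c, -3.14 for dre-miR-19d and -1.71 for dre-miR-19b. dre-miR-19c was not above the blank percentile there, so the size of its difference is a lower limit. For dre-miR-19a, whose listed sequence is a single base away from that of dre-miR-19b, the log2 signal differed by 0.25. The miR-19 probes thus also parted on that array, as the miR-130 and miR-454 probes did. dre-miR-148 and dre-miR-152, whose mammalian forms are known to repress DNA methyltransferases, differed there by 0.25 and 0.36. For dre-miR-152 and dre-miR-19d, 2 of the 6, the MC-RR array was below the control array at each of the 4 replicate numbers. All 4 numbers moved alike in 33.7% of all tested miRNAs. The log2 difference of dre-miR-152 was -0.19 (SE 0.22). Its adjusted p was 0.892 in limma and 0.377 with the block.

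The tested miRNAs most like the mean profile of the 7 members were sought among the 66 miRNAs outside the family that were above the blank percentile on all 8 arrays. By the root mean square difference of centred log2 signals they were dre-miR-7a (0.31), dre-miR-153a (0.31) and dre-miR-17a (0.34), against a median of 0.58 over the 66. The mean profile itself was at -1.18 on MC-RR replicate 2, against -0.06 to 0.34 on the other arrays. That low point came mainly from dre-miR-454a and dre-miR-454b, so the profile is not that of a typical member. A low value on MC-RR replicate 2 was thus part of the choice and is no separate result. Relative to the mean of the other MC-RR arrays, the 3 differed there by -0.86, -1.97 and -0.35. Without that array, a setting chosen after the values were seen, the closest were dre-miR-200b (0.12), dre-miR-200c (0.13) and dre-miR-20b (0.14), against a median of 0.37.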

How the data were processed

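Each of the 8 samples was hybridized to its own chip. The authors' service provider scanned it with a GenePix scanner and digitized it with Array-Pro. The deposited scanner files hold each spot's mean pixel intensity on a linear scale, neither background-subtracted nor normalized. A second table of linear intensities, background-subtracted and LOWESS-normalized by the authors' provider, served as an alternative.

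In R 4.3.3 with limma 3.58.1, spot intensities were corrected with normexp (offset 50), brought to log2 and averaged over the 10 spots of a probe. Cyclic loess over the 248 zebrafish probes put the arrays on a common scale. The 187 miRNAs whose mean exceeded the 95th percentile of blank spots on 4 or more arrays were tested with lmFit and eBayes, and p were adjusted by Benjamini-Hochberg over all of them. Single values were also compared by exact permutation over arrays, for which 4 against 4 arrays allow no p below 0.0286. The tests were checked on simulated data.

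The series description speaks of paired embryos. Deviations of same-numbered arrays from their group means correlated at 0.58, 0.29, 0.53 and 0.78 over the 187 miRNAs for numbers 1 to 4, so the replicate number was taken as a pairing and entered as a block in an alternative. Other alternatives covered normalization, background, offset, detection filter, spot summary, test, leaving out each array, and the deposited table. The named miRNAs are the members, the list with a shifted seed and the 3 of the closest profile. The members and lists were chosen with earlier results of these data known. The number of arrays limits the precision.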

Additional observations from a re-analysis of the deposited data

Results flagged for a closer look

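The value of dre-miR-454a on MC-RR replicate 2, 6.47, lay apart from the other 3 arrays of its group by 0.842 of the range of that group. For dre-miR-454b the value of 6.42 on the same array lay apart by 0.837 of the range. Both exceed Dixon's critical value for 4 arrays. Of the 34 groups of 4 arrays examined, these 2 did so, and chance gives about 1 in 20. The probes of both miRNAs differ by 1 base and can share signal, so the 2 values are not taken as independent. The cause of the loss was not tested.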

How the results depend on the processing

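The count of members at an unadjusted p under 0.05 was 0 under every alternative that gave a value, each array left out included. Among these alternatives, the share of all tested miRNAs is given only for the replicate block and without MC-RR replicate 2. Elsewhere the count of 0 has no background to be set against. No member met detection on all 8 arrays. With each array left out, the median log2 difference of the members stayed between -0.14 and -0.01. There, 0 member pairs had an exact p under 0.05. Elsewhere the median ran from -0.30 with the blank median subtracted to 0.02 with median scaling, 0.03 with quantile normalization and 0.05 on the deposited table. Under the replicate block, 30 tested miRNAs in place of 16 had an unadjusted limma p under 0.05 (0 adjusted in either fit), but no member's call changed, and the p were 0.357 for dre-miR-454a and 0.354 for dre-miR-454b. Signs turned. With quantile normalization dre-miR-130c was at 0.03, dre-miR-301a at 0.07 and dre-miR-301c at 0.07. With median scaling dre-miR-130a was at 0.01, dre-miR-130c at 0.02, dre-miR-301a at 0.07, dre-miR-301c at 0.13 and dre-miR-17a at 0.12, and with 75th percentile scaling dre-miR-19a was at -0.02. On the deposited normalized table dre-miR-130a was at 0.05, dre-miR-130c at 0.05 and dre-miR-301c at 0.06. Over all tested miRNAs, the median was 0.05 with quantile normalization, -0.06 with cyclic loess, 0.10 with median scaling, -0.11 without normalization and -0.14 with 75th percentile scaling. With each array left out, the log2 difference ran from -0.20 to 0.02 for dre-miR-130a, -0.15 to 0.01 for dre-miR-130c and -0.09 to 0.00 for dre-miR-301c. It ran from -1.05 to 0.30 for dre-miR-454a and -1.49 to 0.39 for dre-miR-454b, lowest without MC-RR replicate 4 and highest without MC-RR replicate 2. For the list with a shifted seed it ran from -0.49 to 0.00 for dre-miR-148, -0.03 to 0.30 for dre-miR-19a, -0.64 to 0.13 for dre-miR-19b, -1.20 to 0.11 for dre-miR-19c and -1.15 to 0.01 for dre-miR-19d. With the replicate block and without both replicate 2 arrays, which was added once the values were known, dre-miR-454a was at 0.13, dre-miR-454b at 0.17, dre-miR-19a at -0.10 and dre-miR-19b at 0.02. Outside the family, some unadjusted p fell under the threshold. By the methods' t-test in its paired form, they were 0.0114 for dre-miR-152 and 0.00776 for dre-miR-17a, without an exact test. In limma, dre-miR-7a was at 0.0284 with the block, 0.0311 with 75th percentile scaling, 0.00933 without MC-RR replicate 4 and 0.0369 with the block and without both replicate 2 arrays, where dre-miR-148 was at 0.0107. The size of the miR-454 difference over all arrays varied with the setting. Without background correction it was -0.74 for dre-miR-454a and -0.98 for dre-miR-454b, with the blank median subtracted -2.22 and -2.34, with an offset of 1 -1.21 and -1.44, and on the deposited table, which differs in background and normalization together, -1.56 and -1.69. The causes of these shifts were not tested. No slide or scan is given to block on.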
